A study of Mus musculus with 15 samples.

Results

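Genes known for their activity in embryos, stem cells and tumours were followed in RNA sequencing of mouse intestinal organoids. They were taken as a list of 10 names, with no threshold on their values, and comprised Lin28a, Lin28b, Igf2bp1, Igf2bp2, Igf2bp3, Hmga1, Hmga2, Msi1, Msi2 and the non-coding RNA H19. All 10 were matched by Ensembl identifier among the 43629 genes of the count table. The organoids were epithelial cultures grown in Matrigel from crypts of the proximal small intestine of C57B6/129 mice. WT comprised 5 libraries from cultures kept in ENR medium, which holds EGF, Noggin and R-spondin 1. Of these, 4 carried unrecombined APC flox/flox alleles and were titled with line numbers 1, 2, 5 and 6, and 1 was a dox-naive culture. The Apc group held 4 libraries, 1 from each of these numbered lines, with Apc delta/delta alleles and grown in EN medium without R-spondin 1. P-Rspo3 comprised 4 libraries, titled 15d, 4d, M and F, of organoids carrying the Ptprk-Rspo3 inversion, also grown in EN medium. The inversion had been made with a doxycycline-inducible Cas9 and guide transgene (c3GIC9, driven through R26-rtTA), and the cultures were polyclonal and dox-treated. The dox-naive WT culture carried the same kind of transgene without doxycycline. A further pair of libraries, whose titles and genotype labels may disagree, entered no comparison. WT differed from both mutant groups in medium as well as in genotype. P-Rspo3 also differed from the flox WT and Apc libraries in line, and the labels give no Cas9 transgene or doxycycline treatment for those flox libraries. From the dox-naive WT culture P-Rspo3 differed in doxycycline treatment. These differences cannot be told apart. The labels do not explain the titles 15d, 4d, M and F, and do not say whether all libraries came from separate animals, so p-values measure the spread between these libraries.

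LIN28A and LIN28B bind precursors of the let-7 microRNAs and block their maturation, and let-7 in turn silences transcripts that carry matches to its seed. IGF2BP1, IGF2BP2 and IGF2BP3 bind and stabilise mRNAs, HMGA1 and HMGA2 are architectural proteins that bind AT-rich DNA, and MSI1 and MSI2 are the Musashi regulators of translation. H19 is an imprinted non-coding RNA, expressed from the maternal chromosome beside Igf2, and is the host of miR-675. Several of them are abundant in fetal tissue and low in the adult, whereas Msi1 is a known marker of crypt base cells.

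The microRNAs and target sites behind these definitions are shown first, because LIN28 and let-7 tie several members together. Small RNAs were not measured. The RefSeq table for GRCm38.p6 held 11 mature microRNAs with the let-7 seed, of which 9 were distinct sequences, and 12 hairpins of the let-7 and miR-98 family. GGAG, the letters that the LIN28 zinc knuckles recognise, stood in 9 of the 12 hairpins (75.0%), against 44.5% of 1005 hairpins of all families. In the 3 let-7 family members below and in miR-675-5p, capitals mark bases 2 to 8, the seed. The last of them lies inside the H19 transcript.
mmu-let-7a-5p: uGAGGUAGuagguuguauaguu
mmu-let-7d-5p: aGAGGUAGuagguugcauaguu
mmu-miR-98-5p: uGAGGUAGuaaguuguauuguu
mmu-miR-675-5p: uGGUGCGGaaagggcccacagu

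Matches to the let-7 seed (CTACCTC on the transcript strand) were counted in the longest 3′ UTR that GENCODE M21 (GRCm38) gives for each gene. Hmga2, Lin28b and Igf2bp1 held 4 each, and only 12 of 19911 genes held at least 4. Lin28a held 2. Igf2bp2, Igf2bp3 and Hmga1 held 1 each, and Msi1 and Msi2 held 0. Of all genes, 9.48% held 1 or more. Length bears on such counts, and among 3′ UTRs of like length 0.123% had as many as Hmga2, 0.295% as many as Lin28b and 0.331% as many as Igf2bp1, against 12.1% for Igf2bp2 and 13.3% for Igf2bp3. A match is a string of letters and not a known site of binding. The 4 windows of Hmga2, the first window of Lin28b, the first of Igf2bp1 and the single windows of Igf2bp2 and Igf2bp3 are given with the match in capitals. They lie on the minus strand, at chr10:120364224-120364253, chr10:120362987-120363016, chr10:120362549-120362578 and chr10:120361691-120361720 for Hmga2, at chr10:45381022-45381051 for Lin28b, at chr11:95961778-95961807 for Igf2bp1, at chr16:22059473-22059502 for Igf2bp2 and at chr6:49086787-49086816 for Igf2bp3.
Hmga2 site 1: agggggcgccgacattcaatttCTACCTCa
Hmga2 site 2: caataatccccactcctcaataCTACCTCt
Hmga2 site 3: ggacttcctgatttgcaaggaaCTACCTCc
Hmga2 site 4: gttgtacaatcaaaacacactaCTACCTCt
Lin28b site 1: tcccttcacccgggcgggaagtCTACCTCa
Igf2bp1 site 1: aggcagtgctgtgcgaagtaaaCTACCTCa
Igf2bp2 site 1: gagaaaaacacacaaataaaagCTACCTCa
Igf2bp3 site 1: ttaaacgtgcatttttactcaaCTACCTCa

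Library totals ran from 28902729 to 35528495 reads assigned to genes. Rspo3 had 539 to 1079 counts in P-Rspo3, 0 to 1 in WT and 7 to 57 in Apc, and the Wnt target Axin2 was higher in Apc than in WT by 1.97 on the log2 scale (adjusted p = 2.6e-06). Counts over the whole Apc gene do not resolve the deleted exon and check nothing about the deletion. The summed FPKM (fragments per kilobase of transcript and per 1e6 fragments, a level that can be compared between genes) of 6 epithelial markers was 1347 to 1563 in WT, 1556 to 1880 in Apc and 1278 to 1557 in P-Rspo3. The summed FPKM of 6 enterocyte markers was 2952 to 8882 in WT, 4.12 to 10.8 in Apc and 1992 to 4567 in P-Rspo3, and that of 8 proliferation genes was 432 to 530, 801 to 889 and 398 to 554. Enterocyte and proliferation markers thus moved with Apc, and in bulk RNA fewer cells of a type and less RNA per cell cannot be told apart. The 6 fibroblast markers summed to 0.396 to 2.67 FPKM in Apc, 0.0231 to 0.142 in WT and 0.0295 to 0.452 in P-Rspo3. Pdgfra had 54 to 73 counts in Apc and 0 to 4 in WT, and Postn reached 294 in Apc 2, whereas Col1a2, Dcn and Lum were at or under 3 counts in every library. The 3 endothelial markers summed to 1.17 to 2.04 FPKM in Apc and 0.278 to 0.365 in WT, with Cdh5 at 217 to 372 counts in Apc and 0 in WT, Pecam1 at 3 to 10 against 21 to 36, and Kdr at 0 throughout. The 4 immune markers summed to 3.65 to 10.1 FPKM in Apc and 0.763 to 1.42 in WT, with Cd68 at 154 to 431 counts in Apc and 22 to 40 in WT and Ptprc at 0 to 2 in Apc. The part of these genes in the results on the members was not tested. The pluripotency genes Pou5f1, Nanog and Utf1 were also at or under 3 counts throughout.

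The members fell into a group detected in every library and a group with few reads. In WT organoids Hmga1 was the most abundant by FPKM, with 96.6 ± 15.3 (SD, n = 5). Igf2bp2 followed with 36.1 ± 4.32, Msi2 with 16.02 ± 1.69, Igf2bp3 with 12.0 ± 2.19, Msi1 with 6.55 ± 1.97 and Hmga2 with 6.15 ± 1.01. The ranges of Msi2 and Igf2bp3 overlapped, as did those of Msi1 and Hmga2, so neither pair was ordered beyond its spread. The order was alike in P-Rspo3, with Hmga1 first at 64.6 ± 10.8 (SD, n = 4), Igf2bp2 next at 35.5 ± 2.87, and Hmga2 and Msi1 last at 5.46 ± 1.58 and 4.90 ± 0.711. In Apc organoids it was rearranged. Hmga1 stayed first at 114.5 ± 8.65 (SD, n = 4), but Msi2 came next at 25.9 ± 2.18, ahead of Igf2bp2 at 20.6 ± 2.71, and the ranges of Msi2 and Igf2bp2 did not overlap. Hmga2 followed at 18.5 ± 2.70 and Msi1 at 12.6 ± 4.04, with ranges that overlapped their neighbours, and Igf2bp3 was the lowest of the 6 at 3.75 ± 0.342.

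**Figure D1:**
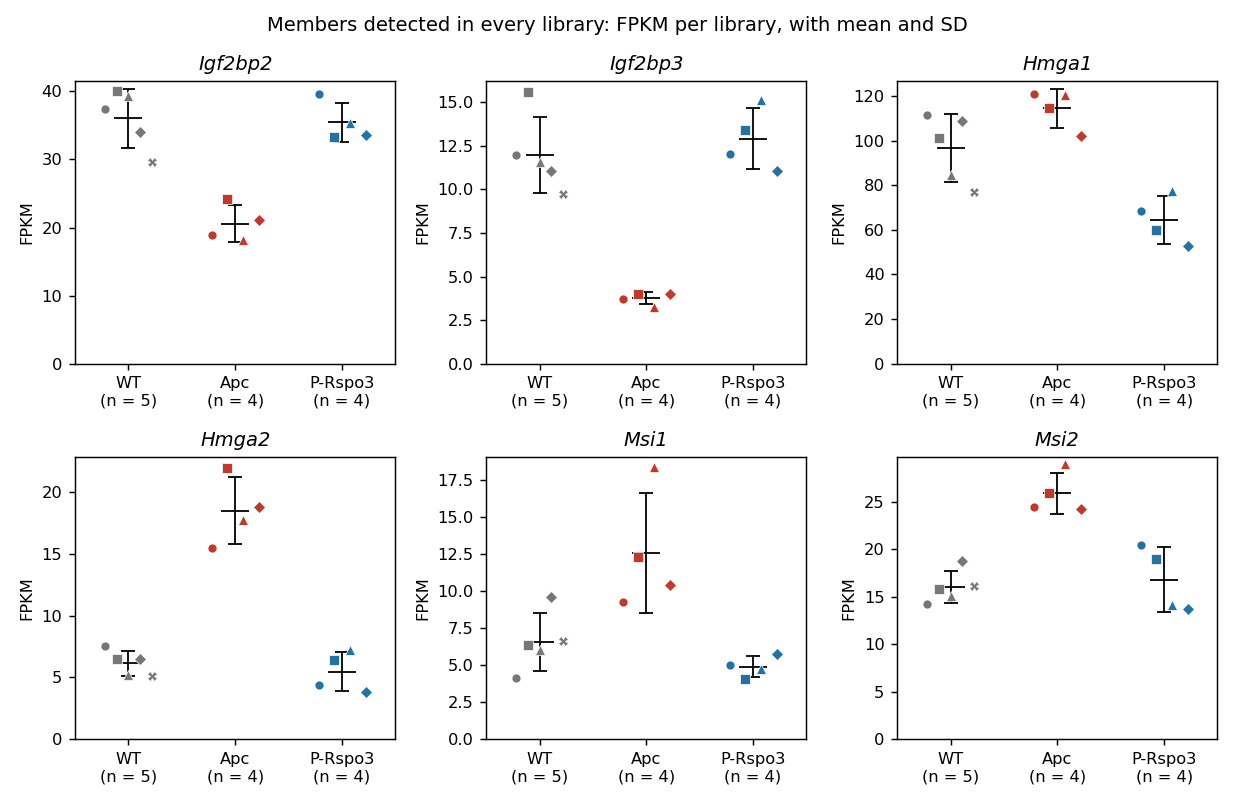
FPKM of the 6 members detected in every library, 1 point per library with the mean and SD in black; circles, squares, triangles and diamonds mark lines 1, 2, 5 and 6 in WT and Apc and the cultures 15d, 4d, M and F in P-Rspo3, and a cross marks the dox-naive library. Apc libraries lie below both other groups for Igf2bp2 (18.1 to 24.2) and Igf2bp3 (3.28 to 4.02) and above both for Hmga2 (15.4 to 21.9) and Msi2 (24.2 to 29.0).

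Between Apc and WT organoids, which differed in medium as well as in genotype, the members did not move together. Igf2bp1, Hmga2 and H19 rose in Apc organoids, Igf2bp2 and Igf2bp3 fell, and Hmga1 was not called (log2FC -0.02). Genes were called at an adjusted p under 0.05 and a log2 fold change above 1 or below -1. Of the 10 members 8 were tested, 3 were called higher and 2 lower, where 12.2% of all 16749 genes tested were called higher and 14.1% lower. Lin28a and Lin28b did not reach the minimum of 0.1 FPKM in 4 libraries, and Igf2bp1 and H19 reached it only through the Apc libraries, so that their place among the tested genes already required a difference.

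Igf2bp3 showed the clearest decrease. Its FPKM was 12.0, 15.6, 11.6, 11.03 and 9.76 in WT 1, 2, 5, 6 and naive. In Apc 1, 2, 5 and 6 it was 3.73, 3.98, 3.28 and 4.02. Every Apc library was thus below every WT library, and the fitted fold change was 3.64-fold lower in Apc (log2FC -1.86, SE 0.14, adjusted p = 1.5e-06, edgeR's quasi-likelihood test, Benjamini-Hochberg adjusted, as for all adjusted p-values of fold changes). Malsu1, a gene that overlaps Igf2bp3 on the opposite strand and could share its reads if strand was not used in counting, had 401 to 466 counts in Apc and 377 to 477 in WT. Igf2bp2, the most abundant of the 3 paralogues and the one that adult tissues retain, had an FPKM of 37.4, 40.0, 39.3, 34.0 and 29.6 in the WT libraries in the same order. The Apc libraries had 18.9, 24.2, 18.1 and 21.1. The groups did not overlap here either, and the fitted decrease was 2.21-fold (log2FC -1.14, SE 0.14, adjusted p = 3.6e-05). This call depended on the scaling. The ratio of counts per library total was 0.554, and limma gave -0.78 on log2(FPKM + 1) and -0.81 on log2(FPKM + 0.1), short of the threshold, where the median of all genes was shifted by 0.17 and 0.28. Relative to those medians the differences were -0.95 and -1.08.

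Igf2bp1 moved the other way, from a level near the detection limit. The WT libraries held 3, 2, 1, 1 and 1 reads, and the Apc libraries 32, 22, 22 and 46. Summed over libraries, 122 counts in Apc against 8 in WT gave a ratio of 17.7 in counts per library total (exact 95% interval 8.69 to 41.9, counting error only), and the fitted log2FC was 3.75 (SE 0.38, adjusted p = 1.1e-05). In level it remained the least of its family, with an Apc FPKM of 0.263 ± 0.139 (SD, n = 4) beside 3.75 for Igf2bp3 and 20.6 for Igf2bp2. Igf2bp2 took a larger part of the family. It made up 83.6% ± 1.52 (SD, n = 4) of the summed FPKM of the 3 paralogues in Apc and 75.1% ± 1.95 (SD, n = 5) in WT, and the libraries did not overlap. The two-sided exact permutation test gave p = 0.0159, the smallest that 4 libraries against 5 allow, and 0.0643 after Benjamini-Hochberg adjustment over the 9 shares and comparisons tested, which is above 0.05.

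Hmga2 rose from a level well above the detection limit. It had an FPKM of 7.502, 6.46, 5.17, 6.49 and 5.12 in WT 1, 2, 5, 6 and naive and of 15.4, 21.9, 17.7 and 18.8 in Apc 1, 2, 5 and 6. All Apc libraries lay above all WT libraries, at 2.49-fold in the fit (log2FC 1.32, SE 0.13, adjusted p = 7.2e-06). The ratio of counts per library total was 3.02 before TMM scaling, whose factors were 1.11 to 1.14 in Apc and 0.885 to 0.941 in WT. Its paralogue Hmga1 did not follow. Hmga1 had an FPKM of 111.6, 101.1, 84.4, 108.8 and 76.9 in WT and of 120.9, 114.7, 120.2 and 102.2 in Apc, and the groups overlapped. Its log2FC was -0.02 (SE 0.10, adjusted p = 0.918), and its sign depended on the scaling, with 0.26 by limma on log2(FPKM + 1), where the median of all genes was also shifted, by 0.17. Hmga1 made up 86.1% ± 2.24 (SD, n = 4) of the summed FPKM of both genes in Apc and 94.0% ± 0.289 (SD, n = 5) in WT, without overlap (two-sided exact permutation test, p = 0.0159, 0.0643 adjusted).

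The Musashi genes were both higher in Apc organoids by the adjusted p, at sizes below the fold threshold. By the adjusted p alone, 30% of all genes tested were higher and 29% lower. Msi2 had an FPKM of 14.2, 15.8, 15.1, 18.8 and 16.2 in the WT libraries and of 24.5, 25.9, 29.0 and 24.2 in the Apc libraries. The groups were apart, and the log2FC was 0.57 (SE 0.09, adjusted p = 2.2e-04). Msi1 had 4.15, 6.35, 6.04, 9.62 and 6.61 in WT and 9.28, 12.3, 18.4 and 10.4 in Apc. Its groups overlapped because WT 6 was high and Apc 1 low, and its log2FC was 0.67 (SE 0.23, adjusted p = 0.0270). The adjusted p of Msi1 was under 0.05 in 21 of 25 alternatives, with log2FCs of 0.47 to 0.93, and that of Msi2 in 25 of 25. The share of Msi2 in the summed FPKM of both was 67.9% ± 4.84 (SD, n = 4) in Apc and 71.5% ± 4.02 (SD, n = 5) in WT, and these ranges overlapped (p = 0.317 by the same exact permutation test).

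H19 was at most 3 reads in every WT library, with 1, 2, 0, 3 and 0, and had 15, 30, 59 and 99 reads in Apc 1, 2, 5 and 6. All Apc libraries were higher, and they differed among themselves by more than those of the other members with over 3 reads. The ratio of 203 counts to 6 was 39.2 in counts per library total (exact 95% interval 17.7 to 108.1, and 60.8 without WT 6, which held 3 of the 6 reads), and the fitted log2FC was 4.87 (SE 0.73, adjusted p = 1.8e-04). At 0.748 ± 0.502 FPKM (SD, n = 4) it was still a rare transcript. Lin28b, a let-7 inhibitor, had 0, 1, 1, 2 and 2 reads in WT and 6, 20, 10 and 16 in Apc. The groups did not overlap, and the ratio of 52 counts to 6 was 10.0 (exact 95% interval 4.32 to 28.6). Without the FPKM filter its log2FC was 2.94 (adjusted p = 0.00117). Lin28a had at most 2 reads in any library and was not detectable at this depth.

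**Figure D2:**
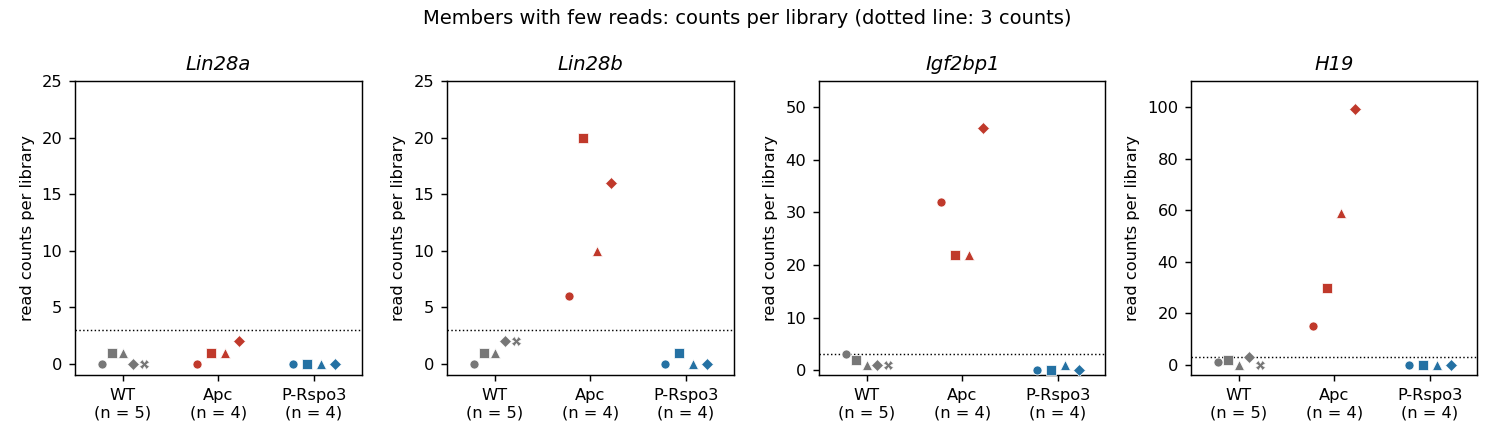
Read counts per library of the 4 members with few reads, with a dotted line at 3 counts and the same symbols per line or culture as in the plot of FPKM. Lin28b (6 to 20), Igf2bp1 (22 to 46) and H19 (15 to 99) exceed 3 counts in all 4 Apc libraries and in no WT or P-Rspo3 library, and Lin28a never does.

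Because the Apc and WT libraries carry the same line numbers, each member could also be read within its line. Hmga2, Msi2, Igf2bp1 and H19 were higher in Apc in 4 of 4 lines, and Igf2bp2 and Igf2bp3 were lower in 4 of 4. The difference of Hmga2 was 0.80, 1.49, 1.45 and 1.35 on the log2 CPM scale in lines 1, 2, 5 and 6, so line 1 was the least. That of H19 ran from 2.23 in line 1 to 4.71 in line 5. Msi1 was higher in 3 lines, by 0.75 to 1.29, and differed by -0.10 in line 6. Hmga1 was higher in line 5 alone, by 0.21. With the line as a replicate block the same 5 members were called.

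**Figure D3:**
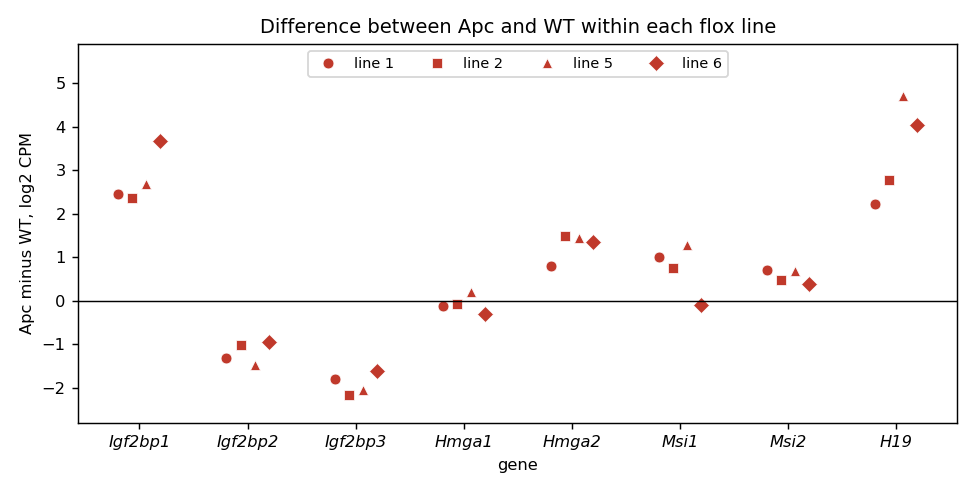
Difference in log2 CPM between the Apc and the WT library of each flox line for the 8 members tested, 1 symbol per line. Points of Igf2bp1, Hmga2, Msi2 and H19 all lie above 0 and those of Igf2bp2 and Igf2bp3 all below, while Hmga1 (-0.29 to 0.21) and Msi1 (-0.10 to 1.29) lie on both sides.

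No member differed between P-Rspo3 and WT organoids by the test. None of the 6 members tested was called in either direction, where 0.00625% of all 15992 genes tested were called higher (1 gene, Rspo3) and 0% lower by edgeR's quasi-likelihood test, although 2159 genes had an unadjusted p under 0.05. Without the dox-naive library the same test called 166 genes higher and 100 lower, and DESeq2 called 55 and 173 with it, but no member in either case. Igf2bp2 had 39.5, 33.3, 35.4 and 33.6 FPKM in 15d, 4d, M and F (log2FC against WT -0.11, SE 0.11, adjusted p = 0.682). Igf2bp3 had 12.1, 13.4, 15.1 and 11.1 (log2FC 0.14, SE 0.14, adjusted p = 0.691), and its libraries lay within the WT range. Hmga2 had 4.41, 6.39, 7.18 and 3.86 (log2FC -0.16, SE 0.19, adjusted p = 0.760), with 15d and F below every WT library and 4d and M inside the WT range. Msi2 had 20.4, 18.95, 14.1 and 13.8 (log2FC -0.03, SE 0.10, adjusted p = 0.943), and was above the WT range in 15d and 4d and below it in M and F. Msi1 had 5.002, 4.06, 4.73 and 5.78 (log2FC -0.42, SE 0.21, adjusted p = 0.411), within the lower part of the WT range except for 4d. A p above the threshold does not show that the groups are alike.

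The low members stayed low. H19 was at 0 reads in all 4 P-Rspo3 libraries, against 0 to 3 in WT. Igf2bp1 and Lin28b had 1 read each in 1 of the 4 libraries, M for the former and 4d for the latter. A count of 0 allows up to 3 reads per library, so differences from WT were not detectable for these genes.

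Of the 6 members tested, Hmga1 had the largest fitted difference between P-Rspo3 and WT, and the counts of a near copy of the gene differed in the opposite direction. Its FPKM was 68.3, 59.7, 77.6 and 52.8 in 15d, 4d, M and F, where WT ran from 76.9 in the dox-naive library to 111.6. The log2FC was -0.63 (SE 0.12), with an unadjusted p of 0.000319 and an adjusted p of 0.0957, and its size was also short of the threshold, so it was not called. The adjusted p was under 0.05 in 5 of 24 alternatives, down to 0.000296 by DESeq2, and in none was the fold threshold reached. Without the dox-naive library the adjusted p was 0.00883, at a log2FC of -0.70. Hmga1b (chr11:120762794-120764419, plus strand) is an intronless copy of Hmga1 (chr17:27556497-27563674, plus strand). Aligned to the Hmga1 transcript over 1602 bases, it differs at 3 of them (99.8% identity), so reads of one gene can be placed on the other. It was named here after its values were seen.

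Hmga1b had 61, 62, 55 and 60 counts in WT 1, 2, 5 and 6 but 828 in the dox-naive library. It had 1092, 804, 1116 and 784 in P-Rspo3 15d, 4d, M and F, and 223, 73, 63 and 64 in Apc 1, 2, 5 and 6. The 13 grouped libraries split by source and not by the groups compared. The dox-naive culture and the P-Rspo3 cultures had 17.9% to 23.6% of the joint counts of Hmga1 and Hmga1b on the copy, and the flox lines had 0.927% to 3.15%, with or without Apc. The pair of ungrouped libraries, labelled dox-naive WT and P-Rspo3, had 0.976% and 1.15%, so this split did not extend to them. When the counts of both were added, the log2FC between P-Rspo3 and WT was -0.32 (SE 0.10, adjusted p = 0.204), about the same with the dox-naive library left out (-0.34, adjusted p = 0.174). The joint FPKM was 66.5 to 96.9 in P-Rspo3 and 85.3 to 112.6 in WT, and the groups overlapped. Whether the copy is expressed in the inducible line, or its reads come from Hmga1, cannot be told apart from counts per gene.

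**Figure D4:**
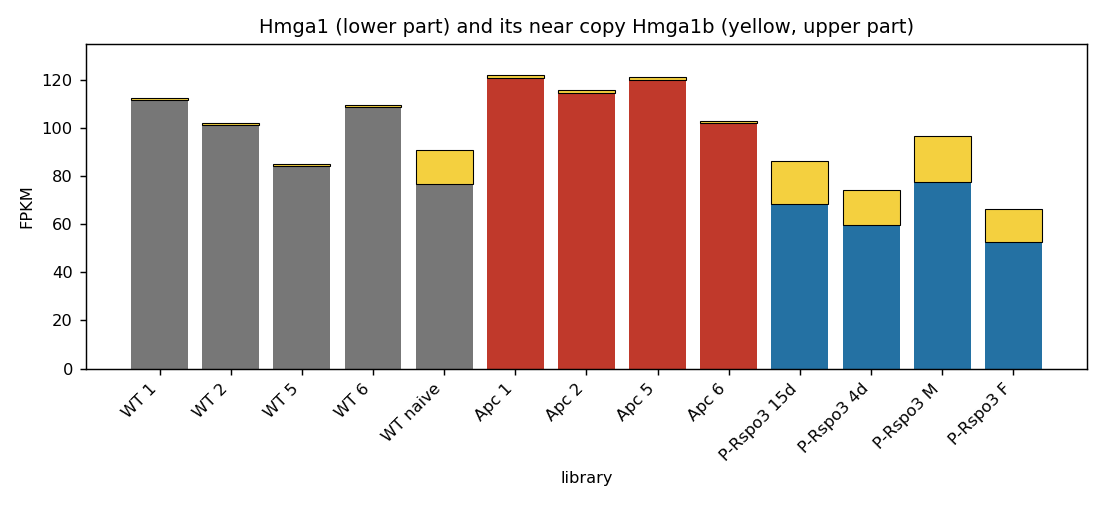
FPKM of Hmga1 (grey in WT, red in Apc, blue in P-Rspo3) with that of its near copy Hmga1b stacked above it in yellow, for each of the 13 libraries. The yellow part is 13.8 to 19.3 FPKM in P-Rspo3 and 14.2 in the WT dox-naive library, and 0.83 to 1.16 FPKM in the 8 libraries of the flox lines.

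Apc and P-Rspo3 organoids were both grown without R-spondin 1, so this comparison is free of the difference in medium, though not of that in line. The P-Rspo3 cultures also carried the Cas9 and guide transgene and were dox-treated, and the labels give neither for the Apc cultures. These differences cannot be told apart from that in genotype. It gave the pattern of Apc against WT with Msi1 added. Of 8 members tested, 4 were called higher in Apc, Igf2bp1, Hmga2, Msi1 and H19, and 2 lower, Igf2bp2 and Igf2bp3, where 13.4% of all 16456 genes tested were called higher and 13.3% lower. Here too Igf2bp1 and H19 passed the FPKM filter only through the Apc libraries, so being tested already required a difference. The P-Rspo3 values are those given above, and Apc libraries are shared with the earlier comparison.

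Igf2bp3 was 3.98-fold lower in Apc than in P-Rspo3 (log2FC -1.99, SE 0.11, adjusted p = 1.2e-06), with Apc at 3.28 to 4.02 FPKM and P-Rspo3 at 11.1 to 15.1. Igf2bp2 lay at the fold threshold, 2.02-fold lower (log2FC -1.01, SE 0.11, adjusted p = 5.1e-05). Its log2FC fell short of the threshold when Apc 1, Apc 5, Apc 6 or P-Rspo3 M was left out, the smallest being -0.95. Hmga2 was 2.81-fold higher in Apc (log2FC 1.49, SE 0.20, adjusted p = 1.9e-04), and every Apc library exceeded 15 FPKM while no P-Rspo3 library exceeded 7.18. Msi1 was 2.16-fold higher (log2FC 1.11, SE 0.20, adjusted p = 0.00119). The groups did not overlap, but without Apc 5, its highest library, the log2FC was 0.91, under the threshold. Msi2 was higher by 0.62 on the log2 scale (SE 0.08, adjusted p = 1.7e-04), below the fold threshold.

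H19 was at least 15.3-fold higher in Apc, taking 3 counts per library as the upper limit for the 4 P-Rspo3 libraries at 0 (adjusted p = 0.0015). The ratio of Igf2bp1 was 112 (122 counts to 1, exact 95% interval 19.8 to 4472) and that of Lin28b 47.9 (52 counts to 1, exact 95% interval 8.22 to 1927), and a single read in P-Rspo3 leaves both upper bounds wide. Hmga1 was higher in Apc by 0.63 on the log2 scale (SE 0.10, adjusted p = 5.6e-04), and by 0.28 (SE 0.10, adjusted p = 0.0397) with Hmga1b added. Of the shares within families, Igf2bp2 had 83.6% in Apc against 73.3% ± 3.13 (SD, n = 4) in P-Rspo3, and Hmga1 had 86.1% against 92.2% ± 1.62, both without overlap (two-sided exact permutation tests, p = 0.0286, the smallest that 4 against 4 allow, and 0.0643 adjusted).

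**Figure D5:**
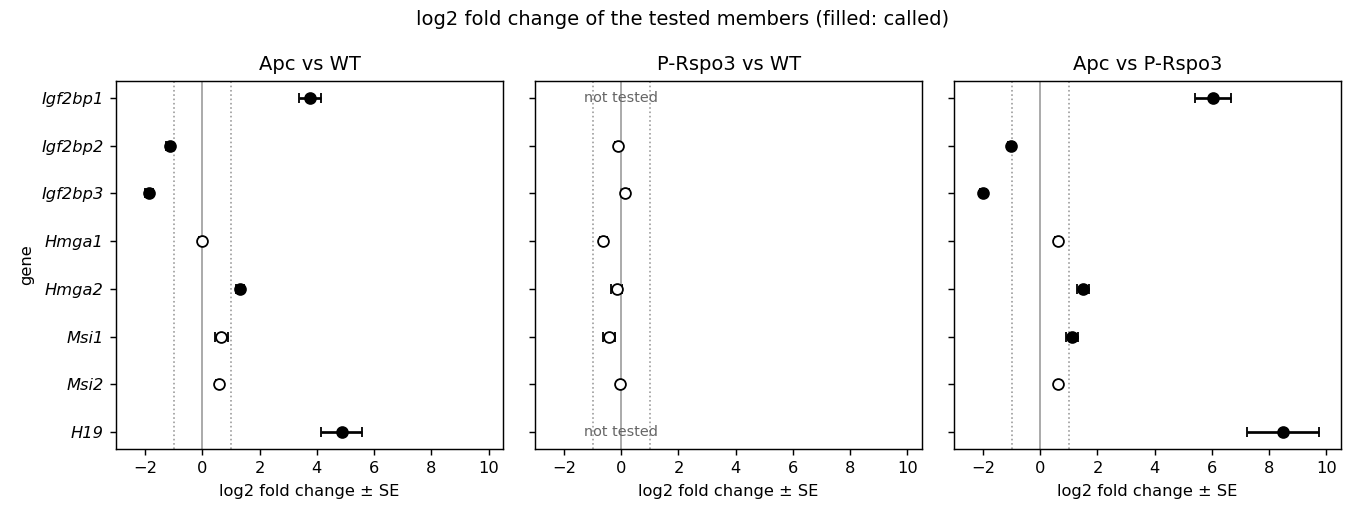
Log2 fold changes with their standard errors for the members tested in each comparison by edgeR's quasi-likelihood test, filled where called, with dotted lines at -1 and 1. In the panels with Apc the points spread from -1.99 (Igf2bp3 against P-Rspo3) to 8.47 (H19 against P-Rspo3, a fitted value against 0 reads), while those of P-Rspo3 against WT lie between -0.63 and 0.14.

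Beside the LIN28 genes, the let-7 pathway was examined. Of 14 genes that process, tail or degrade let-7 precursors or act with let-7, 3 were called higher in Apc than in WT and 0 lower, where the shares over all genes were 12.2% and 14.1%, and the median log2FC was 0.38 beside 0.00058 for all genes tested. Of the 3, Trim71 passed the FPKM filter only through the Apc libraries. Trim71, an RNA-binding ubiquitin ligase that is itself a let-7 target, had 51 to 67 counts in Apc and 0 to 3 in WT, a ratio of 66.6 (exact 95% interval 25.7 to 247) that was 210 without WT 1, which held 3 of the 4 WT reads. Ago1, one of the argonautes that hold mature microRNAs, was at 25.1 ± 2.11 FPKM (SD, n = 4) in Apc and 8.85 ± 1.41 (SD, n = 5) in WT (log2FC 1.19, adjusted p = 1.9e-06), whereas its paralogue Ago2 had a log2FC of -0.04 (adjusted p = 0.730). Tut4, which adds uridines to the let-7 precursors that LIN28 holds, had a log2FC of 2.16 (SE 0.57, adjusted p = 0.00696), with WT 1 at 24 counts and the other WT libraries at 358 to 671. In P-Rspo3 none of the 13 genes tested was called.

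Known let-7 targets outside the members were called in both directions. Of 22 such genes 21 were tested, 1 was called higher in Apc than in WT and 3 lower, and the median log2FC was 0.04. The shares over all genes were 12.2% and 14.1%, so neither count stands out from them. Cdk6, a kinase of the cell cycle, had a log2FC of 1.25 (adjusted p = 4.0e-04). Mycn fell from 2.15 ± 0.223 FPKM (SD, n = 5) in WT to 0.0292 ± 0.0124 (SD, n = 4) in Apc (log2FC -6.48, adjusted p = 2.0e-08). E2f2, a cell cycle transcription factor, and Acvr1c, an activin receptor, fell by 2.23 and 4.49 on the log2 scale. Set beside the seed matches, the members with 4 matches, Hmga2, Igf2bp1 and Lin28b, had higher values in Apc. Of these, Igf2bp1 passed the FPKM filter only through the Apc libraries and Lin28b did not pass it. Lin28a, with 2 matches, had at most 2 reads in any library. Among those with 1 match Igf2bp2 and Igf2bp3 fell and Hmga1 was not called. H19, without a protein-coding 3′ UTR, and the Musashi genes, without a match, were also higher. With so few genes this is a description only.

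H19 was set beside other imprinted genes. Of 21 genes of the imprinted network 12 were tested between Apc and WT, 5 were called higher and 1 lower, against 12.2% and 14.1% of all genes. Peg10, among the 5, passed the FPKM filter only through the Apc libraries, as H19 did. Igf2, the neighbour of H19 on chromosome 7 and its classical counterpart, was the one that fell. It had 48 to 98 counts in WT and 13 to 43 in Apc (log2FC -1.99, SE 0.38, adjusted p = 9.2e-04), and 56 to 425 in P-Rspo3, where the log2FC against WT of 1.42 was not called (adjusted p = 0.233). Igf2r, the receptor that clears IGF2, was at 45.4 ± 2.92 FPKM (SD, n = 4) in Apc and 14.6 ± 1.78 (SD, n = 5) in WT (log2FC 1.34, adjusted p = 8.3e-07). Plagl1 and Peg3, zinc finger genes of the same network, had log2FCs of 3.51 and 4.76, and Cdkn1c, an inhibitor of cyclin-dependent kinases, 1.77. Peg10, a retrotransposon-derived gene, had 49, 76, 102 and 362 counts in Apc 1, 2, 5 and 6 and 0 in every WT and P-Rspo3 library, at least 44.2-fold higher than WT and at least 23.9-fold without Apc 6. In P-Rspo3 none of the 11 imprinted genes tested was called.

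Transcripts known to be bound by the members' proteins were called in both directions. Of 11 transcripts named as IGF2BP targets 9 were tested, and Cd44, Lamb2 and Abcb1b were called higher in Apc while Igf2 was called lower, against 12.2% and 14.1% of all genes. Abcb1b exceeded 0.1 FPKM in WT only in the dox-naive library, so it passed the FPKM filter only through the Apc libraries. Cd44, a Wnt target and surface glycoprotein of crypt cells, was at 49.4 ± 7.98 FPKM (SD, n = 4) in Apc and 11.02 ± 2.21 (SD, n = 5) in WT (log2FC 1.92, adjusted p = 1.6e-06). Myc, a classical IGF2BP1 target, was higher by 0.91 on the log2 scale against WT (adjusted p = 2.5e-05), below the fold threshold, and by 1.05 against P-Rspo3. Of 6 transcripts named as Musashi targets 2 were called higher and 1 lower, against 12.2% and 14.1% of all genes, and their median log2FC was -0.14. Numb, the Notch inhibitor, fell by 1.15 on the log2 scale (adjusted p = 2.1e-07), whereas Lrig1 and Jag1 had log2FCs of 1.28 and 1.05. In P-Rspo3 0 of the 8 IGF2BP targets and 0 of the 6 Musashi targets tested were called.

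Related proteins outside the members were examined too. None of 9 other HMG chromatin proteins was called between Apc and WT, but 6 were higher and 1 lower by the adjusted p alone, where 30% and 29% of all genes were, and Hmgn2 had a log2FC of 0.86 (adjusted p = 1.4e-04). Of 21 other RNA-binding proteins tested, Celf2 and Mex3a were called higher and A1cf, Rbm47 and Zfp36 lower, shares near the 12.2% and 14.1% of all genes. Mex3a, a regulator found in slowly cycling crypt cells, was at 10.9 ± 1.74 FPKM (SD, n = 4) in Apc and 2.16 ± 0.674 (SD, n = 5) in WT. A1cf and Rbm47, RNA-binding cofactors of the APOBEC1 enzyme that edits Apob mRNA in enterocytes, fell by 3.05 and 1.26 on the log2 scale, beside the near absence of enterocyte markers in Apc organoids. Among other oncofetal genes, Ptn, Tpbg and Peg10 were called higher in Apc than in WT and Afp lower, of which Ptn and Peg10 passed the FPKM filter only through the Apc libraries. Afp, alpha-fetoprotein, had 14 to 42 counts in Apc and 142 to 360 in WT. Apart from Rspo3 itself, no gene of any list was called between P-Rspo3 and WT.

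The genes whose profile over the 13 libraries lay nearest to each member, by the root-mean-square difference of centred log2 CPM among 12196 genes, are given as a description. They were Sox9 (0.24) and Fut11 (0.26) for Msi1, Glg1 (0.06) and Zfp157 (0.08) for Msi2, Acsl4 (0.19) and Cers4 (0.21) for Hmga2, and Ifngr1 (0.16) and Erlin1 (0.17) for Igf2bp3. Xbp1 (0.12) and Inafm1 (0.13) were nearest to Igf2bp2, and Tmem231 (0.24) and Anxa3 (0.26) to Igf2bp1. The ribosomal protein genes Rpl29 (0.07) and Rps3a1 (0.14) were among the 3 nearest to Hmga1. The Hmga1 profile used here leaves out the counts on Hmga1b, whose part differed between the flox lines and the other libraries. The nearest to H19 was Rdh1, at 0.44, farther than for any other member. These distances are not scaled to a member's own spread, whose root-mean-square was 1.90 for H19 and 0.54 for Msi1.

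In promoters, from 250 bases before to 50 after the start in the RefSeq table, CTTTGAT or CTTTGAA on either strand, the letters that TCF/LEF factors of the Wnt pathway prefer, were found in 8.65% of 32851 entries. Of the 7 members in the table only Lin28a held such letters, and it had almost no reads. The absence of these letters from the other windows says nothing about binding elsewhere.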

How the data were processed

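RNA was sequenced from 15 organoid libraries, of which 13 were grouped by their labels and 2, whose titles and genotype labels may disagree, were left out of comparisons. By the submitters' processing notes, STAR (reference GRCm38) came before gene counting in HTSeq 0.6.0, and the authors deposited the read counts without normalisation. The deposited FPKM values came from Cufflinks 2.2.1 as run by the authors, which normalises for transcript length and library total. Whether counting used strand, and the annotation release, are not given in the sources used here. Gene names, coordinates and 3′ UTRs were taken from GENCODE M21, and microRNAs and promoters from RefSeq.

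Genes with at least 0.1 FPKM in at least 4 libraries of a comparison were tested with edgeR 4.0.16 (TMM scaling, quasi-likelihood test, R 4.3.3), with Benjamini-Hochberg adjustment over all genes tested. The standard error was the absolute log2 fold change divided by the square root of F. A call needed an adjusted p under 0.05 and a log2 fold change beyond 1. Family shares were compared by exact permutation tests (scipy 1.17.1). Intervals on ratios and the floor of 3 counts cover counting error only. In simulated counts with 200 changed genes, 199, 198 and 195 were recovered for Apc against WT, P-Rspo3 against WT and Apc against P-Rspo3, with 2, 1 and 3 false calls among 16749, 15992 and 16456 genes. The simulation gave all genes the same dispersion and planted only changes beyond the fold threshold, in genes above a minimum count. It checks the procedure and does not measure the power to find differences between these libraries.

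The members and the gene lists were chosen with earlier results of these data known. All members were named, and from each list called genes by smallest adjusted p, at most 6 per comparison, plus the nearest profiles. A gene of the list of other oncofetal genes is not reported here, and no count or median of that list is given. Apc and WT libraries with the same number are the same line by their titles. Their deviations from the group means correlated at 0.0163 to 0.200 (median 0.0944, 4 pairs), against -0.168 to 0.143 (median -0.0309) for 12 other pairs. These ranges overlapped. Alternatives were other filters, DESeq2 1.42.0, limma 3.58.1 on FPKM, libraries left out, a line block and the 2 ungrouped libraries assigned. A newer form of the edgeR test, the addition of Hmga1b to Hmga1 and count ratios with a library left out were chosen after seeing the data.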

Additional observations from a re-analysis of the deposited data

How the results depend on the processing

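Of the members, 3 were called higher and 2 lower in Apc than in WT, and leaving out any library gave 3 to 3 and 2 to 2. The number called higher was 1 with a filter of 1 FPKM, which Igf2bp1 and H19 do not pass, 5 by adjusted p alone and 1 by limma on log2(FPKM + 1). The number called lower was 1 by limma with either pseudocount, the call of Igf2bp2 being lost. Against P-Rspo3, leaving out a library gave 3 to 4 members higher and 1 to 2 lower, the filter of 1 FPKM 2 higher, limma with 1 added 2 higher and 1 lower, and limma with 0.1 added 1 lower. With the line as a replicate block, 3 members were called higher and 2 lower in Apc than in WT, with Hmga2 at 1.25 and Igf2bp3 at -1.93, and the block changed no member's call. No paired analysis was possible because the P-Rspo3 libraries share no number with the others, for both comparisons with P-Rspo3.

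The sign of Hmga1 between Apc and WT (-0.02) turned to 0.0031 with all 3 groups in 1 fit, to 0.26 by limma with 1 added and 0.26 with 0.1 added, to 0.0333 with the 2 ungrouped libraries assigned the other way round, and ranged from -0.0889 to 0.0402 with a library left out. That of Msi2 between P-Rspo3 and WT (-0.03) turned to 0.0525 by limma with 1 added and 0.0546 with 0.1 added, and ranged from -0.0826 to 0.0122 with a library left out. None of these was called, and the cause was not tested.

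Over all genes, calls between Apc and WT were 1184 higher with the filter of 1 FPKM, 5028 higher and 4864 lower by adjusted p alone, and 1132 lower by limma with 1 added. Between Apc and P-Rspo3 they were 1264 higher with that filter, 4719 higher and 4557 lower by adjusted p alone, and 1429 higher and 1122 lower by limma with 1 added. Between P-Rspo3 and WT, where 1 gene was called higher and 0 lower, DESeq2 gave 55 higher and 173 lower without a prior and 4 and 32 with one, no filter gave 2 and 11, all 3 groups in 1 fit 11 and 63, limma 2 and 3 with 1 added and 2 and 2 with 0.1 added, and the newer edgeR form, chosen after seeing the data, 2 and 4. Without the dox-naive library it was 166 higher and 100 lower, the upper ends of ranges of 1 to 166 and 0 to 100 with a library left out, and with the ungrouped libraries the other way round 0 were higher. No member was called between P-Rspo3 and WT under any of these. Low counts limit Lin28a, Lin28b, Igf2bp1 and H19.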

Other observations

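The 2 libraries left out of the groups gave these values. Library 1, labelled dox-naive WT, had 0 Rspo3 counts, and library 2, labelled P-Rspo3, had 729. Igf2bp2 was at 33.6 and 31.6 FPKM, Igf2bp3 at 14.5 and 13.2, Hmga1 at 86.4 and 85.2 and Hmga2 at 5.83 and 6.46 in libraries 1 and 2. Msi1 was at 5.12 and 3.62 FPKM and Msi2 at 18.2 and 17.8. H19 had 2 and 0 counts, Igf2bp1 0 and 1, Lin28b 0 and 0, and Lin28a 1 and 0. Hmga1b had 40 and 41 counts, 0.976% and 1.15% of its sum with Hmga1, against 17.9% in the grouped dox-naive library.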
